A study of Homo sapiens with 9 samples.

Results

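The genes described here encode growth factors that bind the ERBB receptors: the EGF-family ligands AREG, EREG, HBEGF, TGFA, BTC and EPGN and the neuregulins NRG1, NRG2, NRG3 and NRG4. They were chosen by symbol, and 8 of the 10 were analysed, out of 18364 genes in the table. AREG and EPGN were not analysed here. RNA was sequenced from 9 tumours that LN229 cells, an established human glioblastoma line, had formed in the brains of nude mice by the terminal stage. In 6 tumours the cells carried TAZ-4SA, a form of the Hippo pathway co-activator TAZ in which serines targeted by the inhibitory kinases are replaced by alanine, and in 3 tumours they carried the empty vector (EV). All 9 tumours shared the parental line, the nude mouse host and the site of injection. The promoter of the construct, whether the cells were 1 clone, the animal behind each tumour and any removal of mouse reads were not stated in the labels. The comparison asked how active TAZ alters RNA levels in such tumours.

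ERBB ligands are made as membrane-anchored precursors with an EGF-like domain, which cell-surface metalloproteases of the ADAM family cut free. TGFA binds EGFR, HBEGF, BTC and EREG bind EGFR and ERBB4, NRG1 and NRG2 bind ERBB3 and ERBB4, and NRG3 and NRG4 bind ERBB4. ERBB3 has a weak kinase and signals in pairs with other receptors, above all ERBB2, while EGFR is the receptor gene best known for amplification in glioblastoma. Receptor activity runs through RAS and the ERK kinases to transcription factor genes and to feedback inhibitors of the pathway.

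Levels are given as CPM, the read count relative to the size of the library as the authors scaled it. The TAZ-4SA libraries held 3144861 to 31468135 reads and the EV libraries 17314672 to 21576264, and 2990 to 7365 genes had 0 reads in a TAZ-4SA library, against 505 to 622 in an EV library. WWTR1, which encodes TAZ, had 331 ± 74.6 CPM in TAZ-4SA tumours (SD, n = 6) and 120 ± 3.17 CPM in EV tumours (SD, n = 3). The glioma markers VIM, NES and CD44 were read in all 9 tumours, while GFAP, SOX2 and S100B each had 0 reads in TAZ-4SA tumour 4. The 8 glioblastoma cell markers summed to 2065 to 3390 CPM in TAZ-4SA, against 3416 to 3772 CPM in EV. The sum joins genes that moved in opposite directions. NES stood at 99.9 to 258 CPM in TAZ-4SA and 1290 to 1360 CPM in EV. SOX2, OLIG2, S100B and PDGFRA were also lower in every TAZ-4SA tumour than in any EV tumour. CD44 stood at 185 to 400 CPM in TAZ-4SA and 82.6 to 110 CPM in EV, while VIM and GFAP overlapped between the groups.

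NRG1 went up most among the ligands, to 76.6 ± 37.9 CPM in TAZ-4SA tumours (SD, n = 6), against 1.24 ± 0.388 CPM in EV tumours (SD, n = 3). TGFA was the one ligand called lower, at 35.8 ± 18.4 CPM in TAZ-4SA, against 84.6 ± 14.0 CPM in EV. HBEGF, NRG2, NRG3 and NRG4 were not called. BTC and EREG, with means under 1 CPM, were not tested. Across the 6 members tested, 1 was thus higher and 1 lower at an adjusted p of 0.05 (limma on the log2 values, Benjamini-Hochberg over 15578 genes), where 22.4% of all genes tested were called, 9.02% higher and 13.3% lower. Groups without overlap were found for 2 of these 6, NRG1 and NRG2, and for 32% of all genes tested. The median log2 fold change of all genes tested was -0.85, so a fall of that size is the middle of the table. Less RNA per cell and fewer cells that make it cannot be told apart in bulk tumours.

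**Figure D1:**
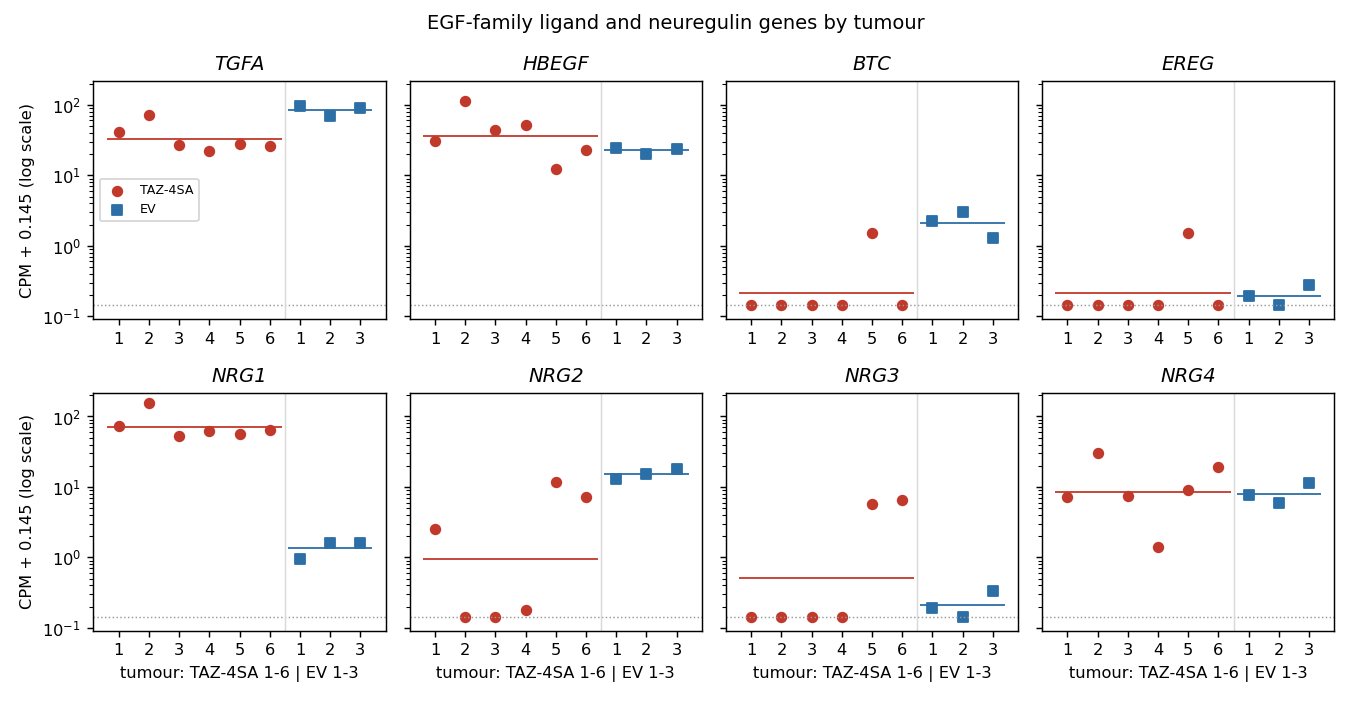
CPM plus the authors' prior of 0.145 on a log axis, for each of the 8 ligand genes in each tumour. TAZ-4SA tumours 1 to 6 are circles and EV tumours 1 to 3 squares, horizontal lines are group means of the log values, and the dotted line marks 0 reads. NRG1 in TAZ-4SA lies at 53.1 to 153 CPM, above every EV tumour, and TGFA in EV lies at 68.8 to 95.3 CPM.

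NRG1, neuregulin 1, is the main ligand of ERBB3 and is known for its part in Schwann cell and glial growth. It spans chromosome 8 from 31639245 to 32774046 (GRCh38). Its level was 53.1 CPM at the lowest, 62.9 CPM at the median and 153 CPM at the highest of the TAZ-4SA tumours, and it was 0.796, 1.45 and 1.48 CPM in EV tumours 1, 2 and 3. Every TAZ-4SA tumour therefore lay above every EV tumour, by a wide gap. The groups did not overlap in this direction for 10.8% of all genes tested. The log2 fold change was 5.72 ± 0.58 (SE), with a limma adjusted p of 4.516e-05. Its highest value came from TAZ-4SA tumour 2, the library with the most genes at 0 reads (7365), and without that tumour the log2 fold change was 5.50 and the gene was still called.

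Patterns closest to that of NRG1 over the 9 tumours, among tested genes averaging 5 CPM or more, belonged to CD274, LINC02582 and CITED2. CD274, which encodes the immune checkpoint ligand PD-L1, had a Pearson correlation of log2 levels of 0.996 with NRG1, and stood at 26.6 ± 12.6 CPM in TAZ-4SA, against 1.20 ± 0.371 CPM in EV. The long non-coding RNA LINC02582 had a correlation of 0.996 and CITED2, a transcriptional co-regulator gene, one of 0.994. These are descriptions over 9 points that share the 2 groups and their depth.

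NRG2, the other ERBB3 ligand, was low in the TAZ-4SA tumours. It was 0 CPM at the lowest, 1.19 CPM at the median and 11.5 CPM at the highest, against 12.7, 15.2 and 17.7 CPM in EV tumours 1, 2 and 3. All TAZ-4SA values lay below all EV values, as they did for 21.3% of all genes tested. NRG2 was nevertheless not called, with a log2 fold change of -3.98 ± 1.70 (SE) and a limma adjusted p of 0.1107. TAZ-4SA tumours 2 and 3 had 0 reads and tumour 4 had 1 read, and the values nearest to EV were in tumours 5 and 6. With all 9 tumours, NRG2 was called lower by limma-voom on recovered reads (adjusted p = 0.03181) and by limma with array weights (adjusted p = 0.01895). Without TAZ-4SA tumours 2, 3 and 4 the log2 fold change was -1.36 and the gene was not called.

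NRG3, a ligand of ERBB4 that is best known from neurons, was read in the TAZ-4SA group in tumours 5 and 6 alone. It stood at 5.60 and 6.42 CPM there, at 0 reads in TAZ-4SA tumours 1 to 4, and at 0.0468, 0 and 0.193 CPM in EV tumours 1, 2 and 3. At a floor of 3 reads, 0 reads allow up to 0.303 CPM in TAZ-4SA tumours 1 to 4, counting error only. NRG3 was not called (limma log2 fold change 1.26 ± 1.52 SE, adjusted p = 0.5655). The 8 neuron markers summed to 859 and 1314 CPM in TAZ-4SA tumours 5 and 6, to 84.5 to 204 CPM in TAZ-4SA tumours 1 to 4 and to 46.3 to 165 CPM in EV. None of the 8 was at 0 reads in TAZ-4SA tumours 5 and 6 or in any EV tumour, and 2 to 5 of them were at 0 in TAZ-4SA tumours 1 to 4. TAZ-4SA tumours 1 to 4 were also the TAZ-4SA libraries with the most genes at 0 reads. ERBB4, described with the receptors, followed the same 2 TAZ-4SA tumours. The part of neuronal RNA in these values was not tested.

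**Figure D2:**
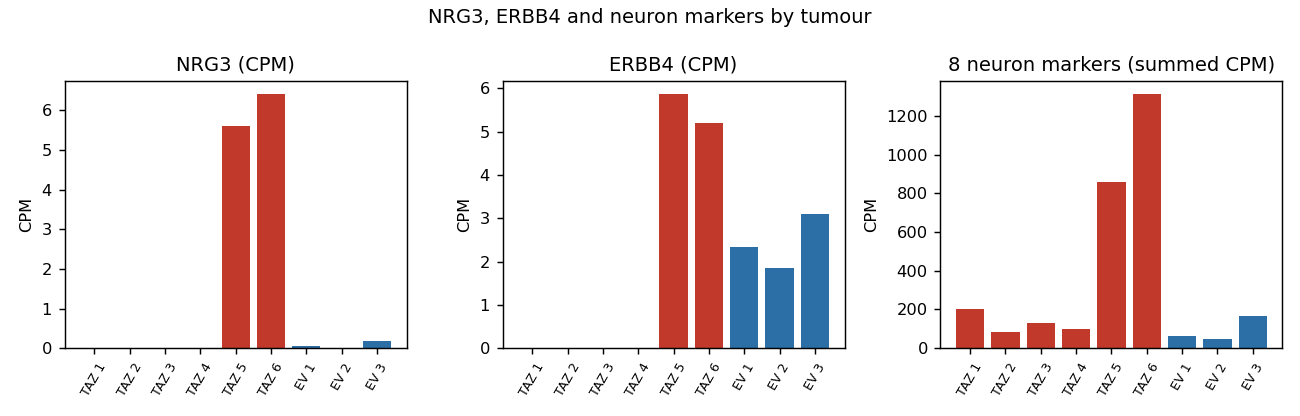
CPM of NRG3, CPM of ERBB4 and the summed CPM of 8 neuron markers, 1 bar per tumour, TAZ-4SA 1 to 6 in red and EV 1 to 3 in blue. In TAZ-4SA the bars of NRG3 and ERBB4 stand above 0 in tumours 5 and 6, where the marker sum reaches 859 and 1314 CPM.

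NRG4, an ERBB4 ligand known from brown fat in mice, was 1.26 CPM at the lowest, 8.07 CPM at the median and 30.2 CPM at the highest of the TAZ-4SA tumours, and 7.50, 5.76 and 11.2 CPM in EV tumours 1, 2 and 3. The TAZ-4SA values lay on both sides of the EV values. The log2 fold change was 0.10 ± 1.11 (SE) with a limma adjusted p of 0.9578, an interval too wide to show that the groups were alike. Its span on chromosome 15 overlaps those of FBXO22 and TMEM266, and the library chemistry keeps no strand, so reads in shared stretches cannot be assigned. FBXO22 stood at 69.5 ± 22.3 CPM in TAZ-4SA, against 35.5 ± 2.14 CPM in EV. TMEM266 stood at 1.18 ± 1.81 CPM in TAZ-4SA, against 6.997 ± 0.885 CPM in EV.

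TGFA, transforming growth factor alpha, binds EGFR and is a classical autocrine ligand of glial tumours. It lies on chromosome 2 from 70447284 to 70553826 (GRCh38). In TAZ-4SA tumours its level was 22.3 CPM at the lowest, 27.2 CPM at the median and 71.1 CPM at the highest, and in EV tumours 1, 2 and 3 it was 95.3, 68.8 and 89.7 CPM. The groups overlapped, since TAZ-4SA tumour 2 lay above EV tumour 2. The log2 fold change was -1.35 ± 0.42 (SE, limma adjusted p = 0.03594), or -0.49 relative to the median of all genes on the log2 scale. The call did not hold without TAZ-4SA tumour 4 or 6 (limma adjusted p = 0.05609 and 0.06131), without EV tumour 1, 2 or 3 (limma adjusted p = 0.1792, 0.1072 and 0.1423), or after quantile normalization (limma adjusted p = 0.05085). Nor did it hold without TAZ-4SA tumours 5 and 6 (limma adjusted p = 0.08493). In tumours 1 to 3 of each group it failed without and with a replicate block (limma adjusted p = 0.1448 and 0.2402).

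The tested genes most like TGFA in pattern were CHST11, PPT1 and ATRAID. CHST11, a chondroitin sulfotransferase gene, had a Pearson correlation of 0.973 over the 9 tumours, the lysosomal thioesterase gene PPT1 one of 0.972 and ATRAID one of 0.968. PPT1 stood at 116 ± 31.1 CPM in TAZ-4SA, against 233 ± 27.6 CPM in EV.

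HBEGF, heparin-binding EGF-like growth factor, is shed from the cell surface and binds EGFR and ERBB4. It was 12.0 CPM at the lowest, 37.3 CPM at the median and 113 CPM at the highest of the TAZ-4SA tumours, and 24.4, 20.1 and 23.5 CPM in EV tumours 1, 2 and 3. TAZ-4SA tumours 1 to 4 lay above the EV range, tumour 6 within it and tumour 5 below it. The log2 fold change of 0.67 ± 0.61 (SE) had a limma adjusted p of 0.4442. It was -0.15 without TAZ-4SA tumours 2, 3 and 4, and not called there either.

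BTC, betacellulin, had 0 reads in 5 TAZ-4SA tumours and 5 reads (1.40 CPM) in TAZ-4SA tumour 5. It had 45, 50 and 18 reads in EV tumours 1, 2 and 3, which are 2.11, 2.91 and 1.16 CPM. TAZ-4SA tumour 5 lay between EV tumours 3 and 1, so the groups overlapped. The exact two-sided permutation test on the log2 values over 84 splits gave p = 0.0476, where the smallest it can give is 0.0238.

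EREG, epiregulin, had 5 reads in TAZ-4SA tumour 5 and 0 in the other 5, and 1, 0 and 2 reads in EV tumours 1, 2 and 3. A difference was not detectable at this depth (exact two-sided permutation test, p = 0.81).

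The DNA before the RefSeq start sites (GRCh38.p14) was searched for the TEAD core letters GGAATG, or CATTCC on the other strand, since TAZ acts through TEAD factors, and for the AP-1 letters TGANTCA, which read the same on both strands. RefSeq windows were searched for 7 of the 8 members analysed, and each window held the 250 bases before a start. NRG1 was left out of the search. The 7 members had 10 windows between them. The TEAD letters occurred in 1 window each of EREG, which was not tested, and NRG4, which was not called. The AP-1 letters occurred in none of the 7. Over all 35116 windows of that length, 11.9% held the TEAD letters and 6.57% the AP-1 letters. The windows of EREG (chr4:74364895-74365144, plus strand) and NRG4 (chr15:76012425-76012674, minus strand) are shown with the match in capitals, 175 and 209 bases before the start, and that of TGFA (chr2:70553827-70554076, minus strand) because TGFA was the ligand called lower. The NRG4 start used, base 76012424, lies inside the gene, whose span on the minus strand begins at base 76060240. No window at that outer start was searched. A match describes the letters alone.
EREG: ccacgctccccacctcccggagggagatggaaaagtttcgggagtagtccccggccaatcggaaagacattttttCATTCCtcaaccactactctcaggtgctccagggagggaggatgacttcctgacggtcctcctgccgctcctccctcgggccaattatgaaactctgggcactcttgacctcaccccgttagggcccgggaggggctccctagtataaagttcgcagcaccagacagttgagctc
NRG4: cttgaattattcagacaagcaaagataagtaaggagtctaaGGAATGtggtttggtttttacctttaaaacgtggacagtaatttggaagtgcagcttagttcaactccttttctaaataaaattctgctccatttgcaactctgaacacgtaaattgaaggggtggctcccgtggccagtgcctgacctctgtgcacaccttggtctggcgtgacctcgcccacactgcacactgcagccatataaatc
TGFA: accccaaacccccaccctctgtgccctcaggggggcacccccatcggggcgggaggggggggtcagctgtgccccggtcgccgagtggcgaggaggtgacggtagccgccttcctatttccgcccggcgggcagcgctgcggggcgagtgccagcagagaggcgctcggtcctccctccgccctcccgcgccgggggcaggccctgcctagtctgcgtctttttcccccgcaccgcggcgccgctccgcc

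Because longer transcripts yield more reads, levels of different ligands were compared as CPM per kilobase of the median protein-coding transcript in GENCODE 29. On that scale NRG1 was the highest of the 8 ligands in 6 of 6 TAZ-4SA tumours and TGFA in 3 of 3 EV tumours. NRG1 made up 37.8% to 45.5% of the summed ligand level in TAZ-4SA tumours and 0.397% to 0.951% in EV tumours. TGFA made up 27.2% to 39.5% in TAZ-4SA and 76.3% to 80.5% in EV. The order within TAZ-4SA depended on the length used. With the longest transcript of each gene, HBEGF was the highest ligand in 4 TAZ-4SA tumours and NRG1 and NRG4 in 1 each, NRG1 made up 22.3% to 29.6% of the sum in TAZ-4SA and 0.311% to 0.706% in EV, and TGFA was still the highest in 3 of 3 EV tumours, with 13.0% to 23.0% of the sum in TAZ-4SA, against 45.5% to 51.3% in EV.

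**Figure D3:**
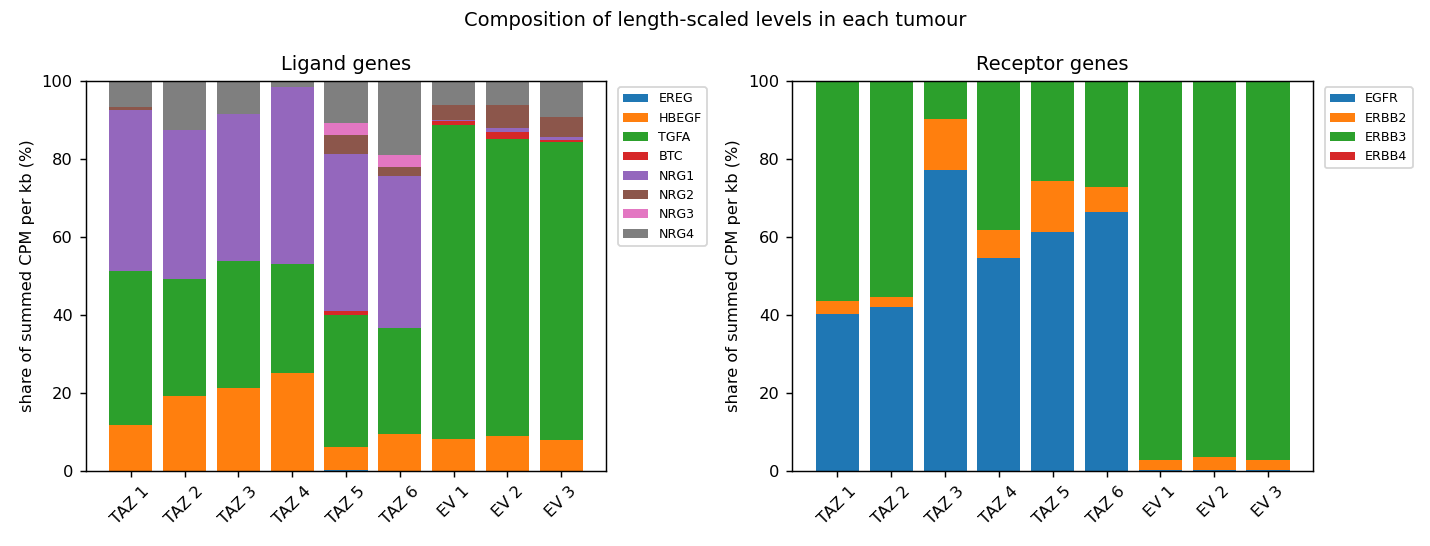
Share of each gene in the summed CPM per kilobase of the 8 ligand genes (left) and the 4 receptor genes (right), 1 stacked bar per tumour, with TAZ-4SA tumours 1 to 6 (TAZ) before EV tumours 1 to 3. Lengths are median protein-coding transcripts. NRG1 takes 37.8% to 45.5% of the ligand bars in TAZ-4SA, and ERBB3 takes 96.3% to 97.1% of the receptor bars in EV.

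The receptors of these ligands changed in opposite directions. EGFR was called higher, ERBB2 and ERBB3 were called lower and ERBB4 was not called. EGFR had 279 CPM at the lowest, 375 CPM at the median and 512 CPM at the highest of the TAZ-4SA tumours, against 8.15, 10.5 and 12.4 CPM in EV tumours 1, 2 and 3. The groups were far apart, with a log2 fold change of 5.15 ± 0.30 (SE, limma adjusted p = 4.987e-07). ERBB3 had 19.8 CPM at the lowest, 70.6 CPM at the median and 120.0 CPM at the highest of the TAZ-4SA tumours, against 1496, 1294 and 1250.4 CPM in EV tumours 1, 2 and 3, a log2 fold change of -4.44 ± 0.51 (SE, limma adjusted p = 0.0001106). The 6 oligodendrocyte markers, a lineage in which ERBB3 is active, summed to 29.9 to 381 CPM in TAZ-4SA and 543 to 658 CPM in EV, and MOG and MOBP had 0 reads in all TAZ-4SA tumours. Their part in the ERBB3 difference was not tested. NRG1 thus went up in the same tumours in which ERBB3, a receptor it binds, fell. TGFA was called lower where its receptor EGFR was higher, though the TGFA groups overlapped and its call did not hold under several alternatives.

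ERBB2, which has no known ligand of its own, had 16.1 CPM at the lowest, 46.1 CPM at the median and 83.5 CPM at the highest of the TAZ-4SA tumours, and 132, 146 and 106 CPM in EV tumours 1, 2 and 3. The groups did not overlap, and the log2 fold change was -1.65 ± 0.51 (SE, limma adjusted p = 0.03565). That call did not hold without TAZ-4SA tumour 1 or 6 (limma adjusted p = 0.06943 and 0.06619) or without EV tumour 1, 2 or 3 (limma adjusted p = 0.123, 0.1402 and 0.08078). Nor did it hold without TAZ-4SA tumours 5 and 6 (limma adjusted p = 0.06437). In tumours 1 to 3 of each group ERBB2 was not called without or with a replicate block (limma adjusted p = 0.07471 and 0.1312). ERBB4 had 0 reads in TAZ-4SA tumours 1 to 4 and stood at 5.88 and 5.20 CPM in tumours 5 and 6, against 2.34, 1.86 and 3.09 CPM in EV tumours 1, 2 and 3. TAZ-4SA tumours thus lay on both sides of the EV range (limma adjusted p = 0.2815). ERBB4 was called lower without TAZ-4SA tumours 5 and 6 (limma adjusted p = 0.0007184). In tumours 1 to 3 of each group it was called lower without and with a replicate block (limma adjusted p = 0.0006577 and 0.01435). Every TAZ-4SA tumour kept in these settings had 0 reads of ERBB4. Their values were thus tied, and the calls followed from the choice of tumours.

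**Figure D4:**
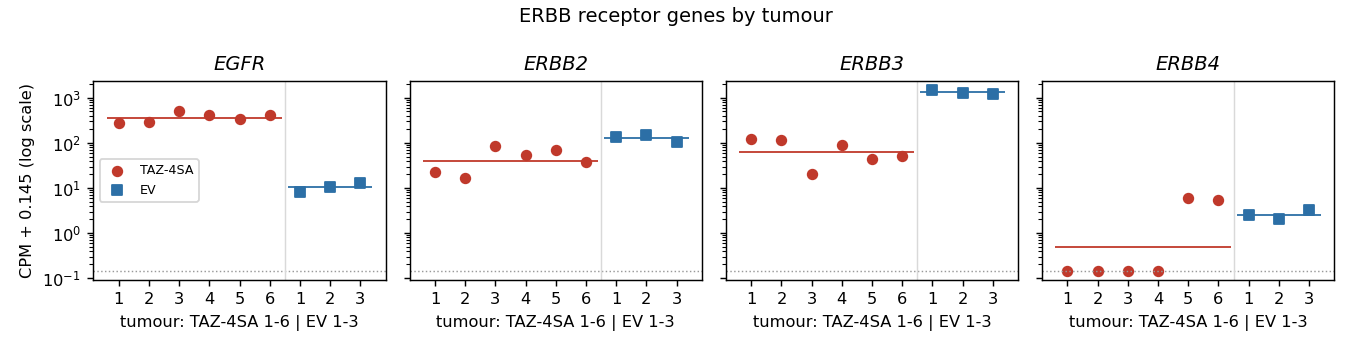
CPM plus 0.145 on a log axis for the 4 ERBB receptor genes, with TAZ-4SA tumours 1 to 6 as circles, EV tumours 1 to 3 as squares, group means of the log values as lines and 0 reads as the dotted line. EGFR in TAZ-4SA lies at 279 to 512 CPM and ERBB3 at 19.8 to 120.0 CPM, without overlap with EV in either gene.

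Per kilobase of the median transcript, EGFR made up 40.2% to 77.2% of the summed receptor level in TAZ-4SA tumours and 0.162% to 0.296% in EV tumours, and ERBB3 9.75% to 56.4% in TAZ-4SA and 96.3% to 97.1% in EV. With the longest transcripts EGFR made up 53.2% to 71.5% in TAZ-4SA and 0.295% to 0.539% in EV. ERBB3 then made up 4.59% to 37.9% in TAZ-4SA and 87.3% to 89.9% in EV. With the median transcript EGFR was the highest receptor in 4 TAZ-4SA tumours and ERBB3 in 2, and with the longest EGFR was the highest in all 6. RefSeq gives EGFR a second start inside the gene, and its window (chr7:55109589-55109838, plus strand) held the TEAD letters 114 bases and the AP-1 letters 232 and 136 bases before that start, all in capitals. The window at the first EGFR start held neither. Of the other receptor and EGF windows, that of ERBB2, called lower, held the AP-1 letters 222 bases before the start, that of EGF, not called, held the TEAD letters 12 bases and the AP-1 letters 17 bases before it, and that of ERBB4 held neither. The table gives 1 value per gene and does not tell the starts apart.
EGFR, inner start: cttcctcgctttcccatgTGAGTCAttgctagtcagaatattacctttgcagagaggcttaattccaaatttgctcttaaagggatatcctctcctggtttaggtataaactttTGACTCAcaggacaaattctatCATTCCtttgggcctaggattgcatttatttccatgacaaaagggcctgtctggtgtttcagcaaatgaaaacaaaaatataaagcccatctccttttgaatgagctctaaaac

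EGF itself, which binds EGFR, had 12.2 CPM in TAZ-4SA tumour 2, 0.560 CPM in tumour 5 and 0 reads in the other 4, and 0.468, 0.698 and 0.387 CPM in EV tumours 1, 2 and 3 (limma adjusted p = 0.7408).

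Of 15 genes for the enzymes that release the ligands and their regulators, 3 were called higher, 1 lower and 11 not called, a share near the 22.4% called over all genes tested. Limma-voom called 3 higher and 3 lower. The median log2 fold change was -0.45, against -0.85 over all genes tested. ADAM10, which releases BTC and EGF, stood at 108 ± 23.3 CPM in TAZ-4SA, against 27.9 ± 3.89 CPM in EV (limma adjusted p = 0.001229). ADAM17, the main sheddase of TGFA, HBEGF and EREG, stood at 57.9 ± 9.62 CPM in TAZ-4SA, against 27.9 ± 5.41 CPM in EV (limma adjusted p = 0.03812), and its call did not hold without TAZ-4SA tumour 1 (limma adjusted p = 0.05083) or without EV tumour 1, 2 or 3 (limma adjusted p = 0.1983, 0.2178 and 0.09204). After median-of-ratios scaling ADAM17 was not called (limma adjusted p = 0.05167). In tumours 1 to 3 of each group it was not called without or with a replicate block (limma adjusted p = 0.06135 and 0.1992). ADAM9, another membrane metalloprotease gene, had the largest rise of these 3, at 147 ± 26.0 CPM in TAZ-4SA, against 10.6 ± 0.355 CPM in EV. The gene called lower was FRMD8, which encodes a protein that stabilises the ADAM17 complex, at 55.7 ± 31.1 CPM in TAZ-4SA, against 134 ± 15.5 CPM in EV, and it was not called without TAZ-4SA tumour 1, 4 or 6 (limma adjusted p = 0.06952, 0.06123 and 0.06931) or EV tumour 1, 2 or 3 (limma adjusted p = 0.1479, 0.1217 and 0.09452). FRMD8 was also not called without TAZ-4SA tumours 2, 3 and 4 (limma adjusted p = 0.05318). In tumours 1 to 3 of each group it was not called without or with a replicate block (limma adjusted p = 0.06701 and 0.1397).

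Among 18 genes that relay the receptor signal, 3 were called higher, 0 lower and 15 not called by limma, where 9.02% of all genes tested were higher and 13.3% lower. The median log2 fold change was 0.29, against -0.85 over all genes. At an unadjusted p under 0.05 limma had 4 higher and 3 lower, and limma-voom on recovered reads called 3 higher and 2 lower. NRAS stood at 219 ± 95.4 CPM in TAZ-4SA, against 42.8 ± 8.21 CPM in EV. PTPN11, the phosphatase SHP2 that passes receptor signals to RAS, stood at 209 ± 63.9 CPM in TAZ-4SA, against 54.3 ± 7.55 CPM in EV. PIK3CA, a catalytic subunit of PI3-kinase, stood at 45.4 ± 10.9 CPM in TAZ-4SA, against 13.6 ± 2.82 CPM in EV and was not called without EV tumour 1 or 2 (limma adjusted p = 0.0817 and 0.07295). With a replicate block over tumours 1 to 3, PIK3CA was not called either (limma adjusted p = 0.0669). Of 14 genes for inhibitors of ERBB receptors, such as ERRFI1 and LRIG1, limma called 0, limma-voom also called 0, and at an unadjusted p under 0.05 limma had 2 higher and 0 lower, against 22.4% of all genes tested called in either direction. Their median log2 fold change was 0.36, against -0.85 over all genes.

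Among ERK output genes, 4 of the 23 tested were called lower, 2 higher and 17 not called, shares near the 13.3% lower and 9.02% higher over all genes tested. Limma-voom called 5 lower and 4 higher, and at an unadjusted p under 0.05 limma had 6 lower and 5 higher. The median log2 fold change was -1.59, against -0.85 over all genes. SPRY4, a feedback inhibitor of receptor signalling, had 27.4 ± 16.6 CPM in TAZ-4SA, against 698 ± 92.0 CPM in EV (log2 fold change -5.54 ± 1.29 SE, limma adjusted p = 0.01084) and was not called without EV tumour 1, 2 or 3 (limma adjusted p = 0.08698, 0.08169 and 0.06494). In tumours 1 to 3 of each group it was not called without or with a replicate block (limma adjusted p = 0.07148 and 0.07431). TAZ-4SA tumour 2 had 2 reads of SPRY4. Without that tumour the log2 fold change was -4.455 (limma adjusted p = 1.726e-05). DUSP6, the ERK phosphatase gene, had 31.3 ± 10.5 CPM in TAZ-4SA, against 189 ± 91.3 CPM in EV. The ETS factor gene ETV5 had 34.8 ± 10.4 CPM in TAZ-4SA, against 183 ± 28.7 CPM in EV, and ETV4 had 25.4 ± 18.1 CPM in TAZ-4SA, against 122 ± 20.2 CPM in EV. The 2 genes called higher were CCND1, which encodes cyclin D1, at 537 ± 84.05 CPM in TAZ-4SA, against 155 ± 38.9 CPM in EV, and FOSL1, an AP-1 subunit gene, at 415 ± 200 CPM in TAZ-4SA, against 59.4 ± 53.8 CPM in EV. FOSL1 was not called in tumours 1 to 3 of each group (limma adjusted p = 0.07862).

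**Figure D5:**
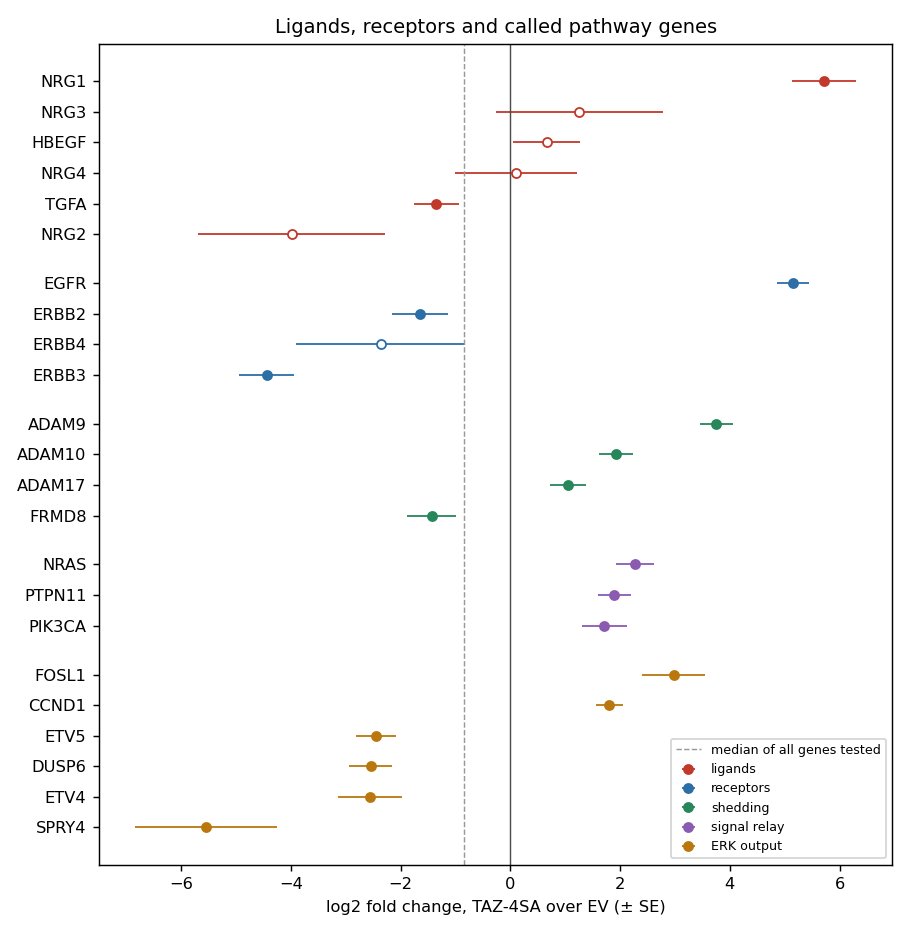
Log2 fold change of TAZ-4SA over EV with its SE from the limma fit, for the 6 ligands tested, the 4 receptors and the called genes of the shedding, signal relay and ERK output lists. Filled points were called at an adjusted p of 0.05, open points were not, and the dashed line is the median of all genes tested (-0.85). NRG1 at 5.72 and EGFR at 5.15 lie farthest to the right, and SPRY4 at -5.54 farthest to the left. Without TAZ-4SA tumour 2, SPRY4 was at -4.455 and ERBB3 at -4.623.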

How the data were processed

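Total RNA of intracranial tumours was made into libraries with a SMART-Seq mRNA kit and Nextera XT, per the labels' protocols, which keeps no strand. HISAT2, edgeR and the GRCh38 build are listed in the submitters' processing notes, with no role given. The authors deposited log2 CPM for 18364 genes, a unit read from the values. Each value includes a prior of 0.145 CPM, and after its removal 100% of values under 5000 reads were whole reads within 0.1 read, so CPM and reads were recovered. Fold changes include the prior and understate changes of low genes. Replicates are tumours, and p-values set the group difference against the spread between tumours. Whether that spread covers separately made cell populations cannot be told, since clones were not stated in the labels.

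The test was limma 3.58.1 (R 4.3.3) with a trended, robust variance prior, run on the log2 values as deposited, for the 15578 genes averaging 1 CPM or more, with Benjamini-Hochberg adjustment at 0.05. Ligands under that mean had an exact permutation test (SciPy 1.17.1). Members and lists were chosen with earlier results of these data known. Named were all members, the receptors and EGF, up to 4 called genes per list and direction by smallest p, 3 genes most correlated with each called member, and called neighbours of the chromosome 4 ligands. The count tests of edgeR and DESeq2 were not run, and limma-voom took their place. Leaving out TAZ-4SA tumours 5 and 6 was added after seeing the data.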

Additional observations from a re-analysis of the deposited data

Results flagged for a closer look

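Of 13 ligand, receptor and EGF genes examined in the 6 TAZ-4SA tumours, 4 had a single tumour apart from the rest by Dixon's test on the log2 values. Chance flags about 1 in 20 groups, a rate that holds for values without ties and so not for EGF, with 4 of the 6 tumours tied at 0 reads, or for BTC and EREG, with 5 tied, where any read in the sixth sets it apart. NRG1 had 153 CPM in TAZ-4SA tumour 2 and 53.1 to 72.0 CPM in the others. EGF had 12.2 CPM in TAZ-4SA tumour 2 and 0 to 0.560 CPM in the others. BTC and EREG each had 1.40 CPM, 5 reads, in TAZ-4SA tumour 5 and 0 reads in the others. TAZ-4SA tumour 2 held the highest TAZ-4SA value of 4 of the 8 ligands (NRG1, HBEGF, TGFA and NRG4), and it was also the library with the most genes at 0 reads. The part of that library's composition in these values was not tested.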

How the results depend on the processing

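Of the ligands, limma called 1 higher (NRG1) and 1 lower (TGFA). NRG1 was called under all 22 alternatives, with log2 fold changes of 4.50 to 7.67. The count of ligands called lower was 0 after quantile normalization, 2 with no filter, array weights, tumours 1 to 3 of each group, limma-voom on recovered reads or without TAZ-4SA tumours 5 and 6 (which hold the NRG2 values nearest to EV and the only TAZ-4SA reads of BTC, so that both had to move down), and 0 to 1 when leaving out each tumour in turn, with 1 higher throughout. TGFA was not among the ligands called lower in tumours 1 to 3 of each group or without TAZ-4SA tumours 5 and 6. The 2 called there were NRG2 and BTC. BTC had 0 reads in every TAZ-4SA tumour kept in these settings and passed the filter only through its EV values. Its call there was therefore fixed by the choice of tumours. Over the pathway lists, 8 genes were higher and 5 lower. These counts were 14 higher after quantile normalization or without TAZ-4SA tumours 2, 3 and 4, 20 higher and 19 lower with array weights, 8 lower at log2(CPM + 2), 10 lower by limma-voom, and 6 to 13 higher and 3 to 7 lower when leaving out each tumour. Over the whole table, 1405 genes were higher and 2079 lower. These were 3384 lower with no filter, 967 lower at a mean of at least 10 CPM, 1291 higher and 3646 lower by limma-voom, 2531 higher and 5630 lower with array weights, and 773 to 1692 higher and 677 to 2646 lower when leaving out each tumour. Quantile normalization gave 1920 higher and 1624 lower and moved the median of all genes to -0.15. Uncalled log2 fold changes that reversed were EGF (0.20 at log2(CPM + 2), 1.34 after quantile normalization), ERBB4 (0.24 after quantile normalization), HBEGF (-0.15 without TAZ-4SA tumours 2, 3 and 4) and NRG4 (-0.27 without TAZ-4SA tumour 2, -0.14 without TAZ-4SA tumour 6, -0.12 without EV tumour 2, a range of -0.27 to 0.62 when leaving out each tumour, -0.22 without TAZ-4SA tumours 5 and 6, -0.74 by limma-voom). The cause was not tested.

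The tumour numbers gave no pairing: deviations of same-numbered tumours correlated at 0.031, 0.0037 and -0.047. With a replicate block over tumours 1 to 3, limma called 573 genes higher and 2165 lower, against 1247 and 2768 for the same tumours without it, and TGFA had a log2 fold change of -0.97 (adjusted p = 0.2402). The edgeR and DESeq2 tests were not run. TAZ-4SA tumours 5 and 6 were the shallowest libraries, where 3 reads come to up to 0.917 CPM.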

Other observations

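EREG and BTC lie with AREG and EPGN in a cluster on chromosome 4 from 74308470 to 74794523 (GRCh38). Of 13 other genes of the table that start within 1000000 bases of the cluster, 10 were tested, and 2 were called higher, 0 lower and 8 not called by limma, a share near the 22.4% called over all genes tested. G3BP2, a stress granule gene, stood at 149 ± 37.2 CPM in TAZ-4SA, against 51.0 ± 5.52 CPM in EV (limma adjusted p = 0.004095). ODAPH stood at 8.78 ± 7.50 CPM in TAZ-4SA, against 0.111 ± 0.0570 CPM in EV (limma adjusted p = 0.03227), and was not called without TAZ-4SA tumour 6 (limma adjusted p = 0.05044) or without EV tumour 1, 2 or 3 (limma adjusted p = 0.1588, 0.1409 and 0.1474). ODAPH was also not called at log2(CPM + 2) or without TAZ-4SA tumours 5 and 6 (limma adjusted p = 0.05474 and 0.05833). In tumours 1 to 3 of each group it was not called (limma adjusted p = 0.1009). With a replicate block over these tumours, neither G3BP2 nor ODAPH was called (limma adjusted p = 0.05041 and 0.1364).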
